A study of Rattus norvegicus with 2 samples.

Results

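The receptors described here sense lysophospholipids or oxysterols, lipid cues that steer lymphocytes between blood and tissue. They are the sphingosine 1-phosphate (S1P) receptor genes S1pr1, S1pr2, S1pr3, S1pr4 and S1pr5, the lysophosphatidic acid (LPA) receptor genes Lpar1, Lpar2 and Lpar6, and the oxysterol receptor gene Gpr183. Every probe set whose annotated gene symbol was one of these 9 was taken. Of the 9 genes, 7 were on the array through 10 probe sets, out of 14217 genes and 31099 probe sets in all. S1pr4 and Gpr183 had no probe set by symbol, older symbol, gene number or RefSeq transcript, and their expression was not analysed here.

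The arrays compared NKR-P1B+ with Ly49s3+ natural killer (NK) cells, lymphocytes that kill infected or altered cells, from spleens of PVG.7b rats aged 8 to 12 weeks. NKR-P1B is an inhibitory and Ly49s3 an activating lectin-like receptor, and each sort selected cells with NKR-P1A and only the named one of this pair. Before the sort, cells bearing CD5, CD45RA, CD68, the kappa chain of immunoglobulin or the alpha-beta T cell receptor were depleted. Both sorts selected cells without CD3, and purity was above 90% per the labels. RNA from 9 rats in all gave 1 array per population, how the rats were pooled not being given in the sources used here, so no test between the populations was possible and each value below describes 2 arrays.

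Both families signal through G proteins. S1P is abundant in blood and lymph and scarce inside lymphoid tissue, and S1pr1, coupled to inhibitory G proteins, lets lymphocytes follow this gradient out of tissue, while in the mouse S1pr5 does so for NK cells. LPA is made outside cells by autotaxin, the product of Enpp2, and acts on Lpar1 and Lpar2, of the family that also holds the S1P receptors, and on receptors related to purinergic ones, such as Lpar6. Gpr183, also called EBI2, follows oxysterols made by Ch25h and Cyp7b1 and degraded by Hsd3b7, and places B cells and dendritic cells within the spleen.

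The S1pr1 and Lpar6 promoters are shown because these 2 receptors were above the signal floor given below on both arrays and higher in Ly49s3+ cells. Each sequence is the 250 bases before the RefSeq start site in the GRCr8 assembly, S1pr1 at chr2:206314071-206314320 on the minus strand and Lpar6 at chr15:54825860-54826109 on the plus strand, with capitals marking a CACCC box on either strand.
S1pr1: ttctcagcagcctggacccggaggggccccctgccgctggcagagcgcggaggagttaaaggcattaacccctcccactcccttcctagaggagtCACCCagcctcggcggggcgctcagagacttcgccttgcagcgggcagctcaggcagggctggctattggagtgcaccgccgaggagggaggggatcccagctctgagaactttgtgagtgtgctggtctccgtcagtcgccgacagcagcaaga
Lpar6: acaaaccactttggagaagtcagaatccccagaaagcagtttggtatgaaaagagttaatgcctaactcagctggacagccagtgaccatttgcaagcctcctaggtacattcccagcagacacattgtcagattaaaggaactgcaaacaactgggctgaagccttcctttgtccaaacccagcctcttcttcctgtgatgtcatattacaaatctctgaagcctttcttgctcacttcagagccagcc
The CACCC box is bound by Krüppel-like factors such as Klf2, which in mouse T cells drives S1pr1. The S1pr1 promoter held 1 such box, from base −155 to base −151 counted from the start site, and the Lpar6 promoter held none. The letters are common. CACCC or its reverse complement GGGTG occurred in 49.2% of 33469 promoter windows of this length and in 4 of the 7 receptor promoters in the table, those of S1pr1, S1pr3, S1pr4 and S1pr5. The T-box letters GGTGTGA (3.22% of all windows) and the forkhead letters GTAAACA (3.21%) were in none of the 7 on either strand, and the E-box letters CACCTG, read by Zeb2 (15.9%), were in that of S1pr4. None of these motifs contains another. The windows of Lpar1 and Lpar2 were not in the table. The S1pr1 window was 64.8% G or C and that of Lpar6 46.0%, with a median of 51.2% over all windows.

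Signals are MAS5 intensities in arbitrary units, and the median was 19.6 in NKR-P1B+ cells and 21.3 in Ly49s3+ cells. A floor of 20.4, the 50th percentile of all non-control signals, was applied, and a gene was measured if at least 1 array exceeded it, as 9114 genes did. Klrb1b, encoding NKR-P1B, had 1399 and 29.4, higher in the cells sorted for it, and Ly49s3 had 0 probe sets of its own symbol. All 11 NK markers on the array were measured, with no signal below 318. The spread between the 2 brightest probe sets of a gene was taken over 1993 genes with both above the floor on both arrays. It corresponded to an SD of 0.38 (log2) at mean signals below 50, 0.32 from 50 to 100, 0.24 from 100 to 400 and 0.18 above. Differences among rats, sorts or hybridisations are not part of this SD.

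Of the 7 receptors on the array, 5 were measured. Lpar1 was higher in NKR-P1B+ cells, S1pr1 was higher in Ly49s3+ cells, and Lpar6 and S1pr5 were within 1.5-fold. Lpar2 had only a lower bound, under 1.5-fold. S1pr2 and S1pr3 were below the floor on both arrays. Thus 1 of 5 measured receptors was at least 1.5-fold higher in NKR-P1B+ cells, against 5.06% of all measured genes, and 1 of 5 in Ly49s3+ cells, against 5.72%, or 10.8% in either direction. With 5 genes, a share cannot be set apart from this background. The median log2 difference of the 5, NKR-P1B+ minus Ly49s3+, was −0.15, against −0.02 over all measured genes, whose SD was 0.42. In bulk RNA, fewer cells with a transcript and less transcript per cell cannot be told apart.

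**Figure D1:**
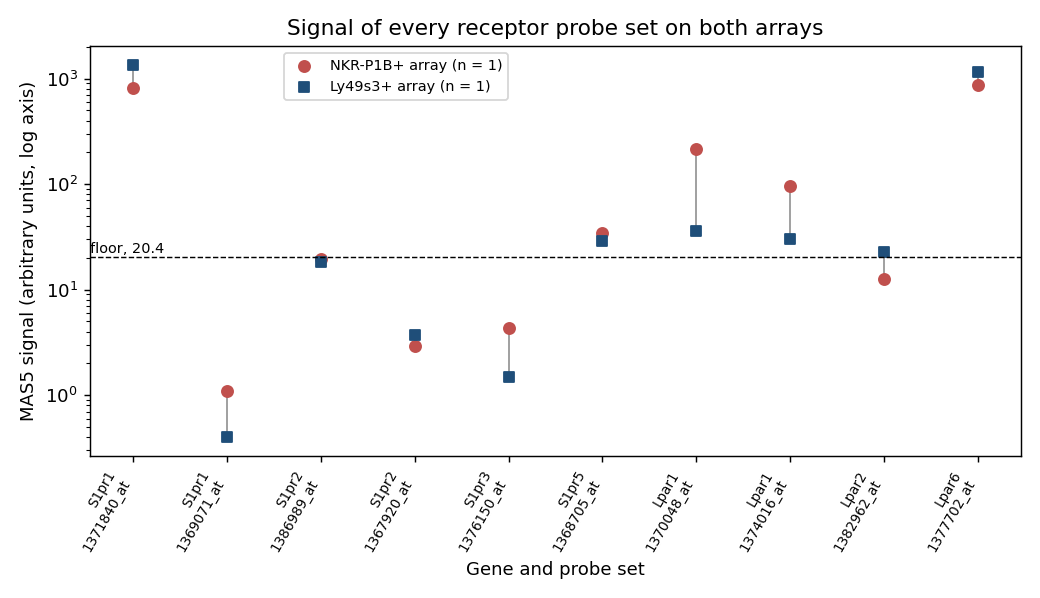
MAS5 signal (arbitrary units, log axis) of each of the 10 receptor probe sets, with a circle for the NKR-P1B+ array and a square for the Ly49s3+ array. Both Lpar1 probe sets were higher in NKR-P1B+ cells, the brighter S1pr1 probe set and Lpar6 were higher in Ly49s3+ cells, and 4 probe sets lay below the dashed floor of 20.4 on both arrays.

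S1pr1, the receptor for exit from tissue, was bright in both populations. Its brighter probe set had a signal of 822 in NKR-P1B+ cells and 1356 in Ly49s3+ cells, 1.65-fold higher in the latter. The log2 difference of −0.72 was larger than the SD of 0.18 between probe sets at such signals, and 315 of 9114 measured genes, 3.46%, were at least as far apart in this direction. With the arrays scaled to their poly-A spikes, bacterial RNAs carried through labelling, the difference became −0.19, no longer 1.5-fold. This scaling adds nearly the same amount to every gene, and the median of genes above the floor on both arrays moved to 0.52 with it. The other S1pr1 probe set, annotated with the RefSeq transcript, had 1.1 and 0.4, far below the floor, and gave no difference. Pairs with a probe set below the floor, as here, are not part of the SD. For the actin controls, 3′ signal over 5′ signal came to 11.9 in NKR-P1B+ cells and 13.2 in Ly49s3+ cells. For the GAPDH controls this ratio was 2.84 in NKR-P1B+ cells and 2.77 in Ly49s3+ cells. The part of these ratios in the disagreement of the S1pr1 probe sets was not tested.

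The other S1P receptors had low signals. S1pr5, the receptor tied to NK cell exit from marrow in the mouse, had 34.4 in NKR-P1B+ cells and 29.0 in Ly49s3+ cells. Both values were just above the floor, and the log2 difference of 0.25 was smaller than the SD of 0.38 between probe sets at low signals. S1pr2, which restrains migration, had 19.5 and 18.1 on its brighter probe set and 2.9 and 3.7 on the other. S1pr3, known from endothelial and heart cells, had 4.3 and 1.5. For these 2 receptors no ratio is given, since both arrays were below the floor.

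Among the LPA receptors, Lpar1, which is widely expressed in brain and mesenchymal tissue, had the largest difference of the 5 measured receptors. Its brighter probe set had 216 in NKR-P1B+ cells and 36.3 in Ly49s3+ cells, 5.96-fold higher in the former. The other had 95.3 and 30.4, 3.13-fold higher. Both probe sets were above the floor on both arrays and ran the same way, with log2 differences of 2.57 and 1.65 against an SD of 0.32 between probe sets at such signals. Among 9114 measured genes, 7 including Lpar1 itself were at least as far apart in this direction, and 1.78% were at least 2-fold higher in NKR-P1B+ cells. Averaged over its probe sets the difference was 2.11, and it lay between 1.86 and 3.11 under all 8 other settings tried, so its direction did not depend on them.

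Lpar6, a purinergic-type LPA receptor, was bright on both arrays, at 865 in NKR-P1B+ cells and 1148 in Ly49s3+ cells. It was 1.33-fold higher on the latter. The log2 difference of −0.41 exceeded the SD of 0.18 between probe sets at such signals but stayed within 1.5-fold. Poly-A spike scaling, with its shift of all genes above the floor on both arrays, turned this difference to 0.12. Lpar2, the other LPA receptor of the S1P-related family, had 12.7 in NKR-P1B+ cells and 22.6 in Ly49s3+ cells. Only the latter was above the floor, so Lpar2 was at least 1.11-fold higher there. A floor at the 35th percentile, 9.6, put it at −0.83, past 1.5-fold, since both values were then above the floor.

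**Figure D2:**
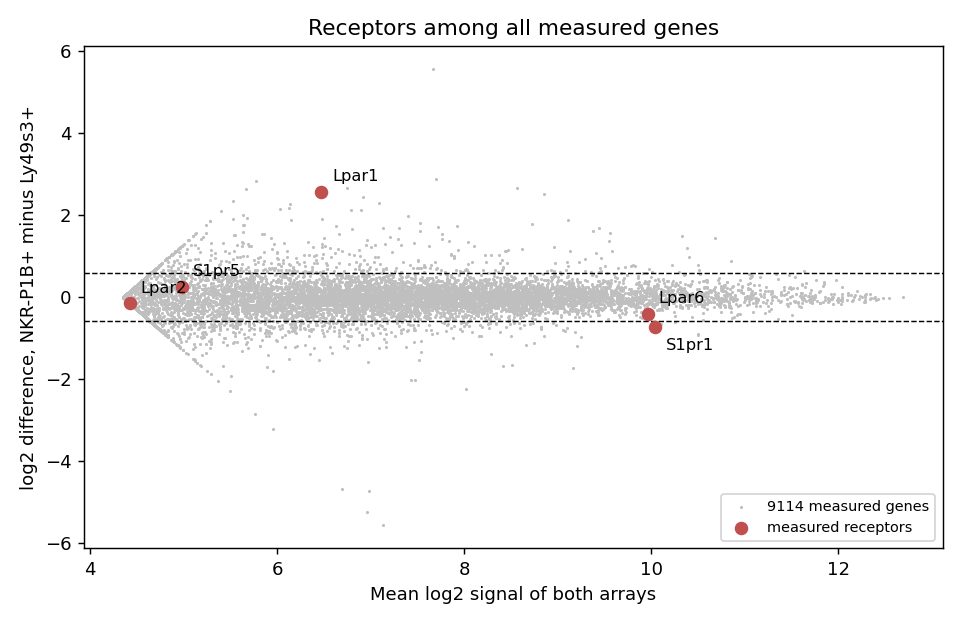
The log2 difference, NKR-P1B+ minus Ly49s3+, against the mean log2 signal of both arrays for 9114 measured genes (grey) and the 5 measured receptors (red), with dashed lines at 1.5-fold. Lpar1 at 2.57 lies above the upper line, S1pr1 at −0.72 below the lower, and Lpar6, S1pr5 and Lpar2, the last a lower bound, between them.

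With 2 arrays each gene has a single difference, so likeness of pattern is weak. The genes closest to Lpar1 in log2 difference, counting genes measured in both populations, were the TNF receptor family gene Tnfrsf25 at 2.52 and the secreted glycoprotein gene Olfm1 at 2.67. Those closest to S1pr1 were Akr1d1 and Trpc2, both at −0.72.

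The rest of the lipid receptor family was little represented. Of 9 other lysophospholipid receptor genes listed, 4 were on the array and P2ry10, a receptor for lysophosphatidylserine named here after its values were seen, was measured, at 1253 and 943 (log2 difference 0.41). Lpar3, Lpar4 and Gpr34 were below the floor on both arrays, none of them above 7.1.

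Of the measured genes that make, break down or move the ligands, 1 was at least 1.5-fold apart, against 10.8% of all measured genes. These lists are too small to set a share apart, and some of their genes had only bounds. Of 12 S1P pathway genes on the array, 7 were measured, 5 of them above the floor on both arrays and within 1.5-fold, and 1 had a bound under 1.5-fold. The other was Plpp3, a surface phosphatase that dephosphorylates both S1P and LPA, which had 48.7 in NKR-P1B+ cells and 10 in Ly49s3+ cells, at least 2.39-fold higher on the former. A second Plpp3 probe set had 38.3 and 8.6 and another 1.8 and 2.3. The S1P-making kinase gene Sphk2 had 106 and 114, while Sphk1 (15.5 and 12.6) and the S1P lyase gene Sgpl1 (7.0 and 7.2) were below the floor on both arrays. All 10 LPA pathway genes on the array were measured, with a median of −0.17. Of them, 7 were above the floor on both arrays and within 1.5-fold, and the other 3, Enpp2, Pla1a and Agpat1, named after their values were seen, had only lower bounds (15.2 and 22.9, 12.9 and 24.8, and 25.9 and 11.3). Among 9 oxysterol genes, Ch25h (5.9 and 11.7) and Cyp7b1 (0.2 and 0.4), which make the Gpr183 ligand, were below the floor on both arrays. Hsd3b7, which degrades it, had 17.6 and 28.0, at least 1.37-fold higher in Ly49s3+ cells, a bound that leaves 1.5-fold undecided. The other 3 measured oxysterol genes were above the floor on both arrays and within 1.5-fold.

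Of 9 G protein alpha subunit genes on the array, 6 were measured. Of these, 2 were at least 1.5-fold higher in NKR-P1B+ cells, against 5.06% of all measured genes. With 6 genes, this share cannot be set apart from the background. Gna15, of the Gq family, had 57.9 in NKR-P1B+ cells and 14.9 in Ly49s3+ cells, at least 2.84-fold higher on the former. Gna12, which couples to S1pr2 and to LPA receptors, had 73.8 and 47.8, 1.54-fold higher, on a probe set whose partner (16 and 8.4) was below the floor. Gnai2, the main inhibitory alpha subunit of lymphocytes, had 318 and 238, within 1.5-fold. Gna13 had no probe set of its own symbol.

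On their brightest probe sets, all 10 measured genes of the list of regulators of S1P receptor expression were within 1.5-fold, with a median of 0.04, but other probe sets of Zeb2 and Eomes were not. Eomes, a T-box factor of NK cells named after its values were seen, had 1237 in NKR-P1B+ cells and 1821 in Ly49s3+ cells on its brightest probe set (log2 difference −0.56) and 402 and 663.5 on the other (−0.72). Klf2, which activates S1pr1 in mouse T cells, had 1505 in NKR-P1B+ cells and 1434 in Ly49s3+ cells. Of its 5 probe sets, 1 (1.1 and 2.1) was below the floor on both arrays. The log2 differences of the others ran from −0.52 to 0.16. Foxo1, upstream of Klf2, had 390 and 412. Cd69, whose protein binds S1pr1 and removes it from the surface, had 4586 and 4244. Zeb2, which in mouse NK cells favours S1pr5, had 127 and 163 on its brightest probe set, 91.8 and 139.9 on another (log2 difference −0.61), and 19.4 and 34.4 on another with 1 array below the floor. The T-bet gene Tbx21 had no probe set of its own symbol. The part of any of these regulators in the 1.65-fold S1pr1 difference was not tested.

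**Figure D3:**
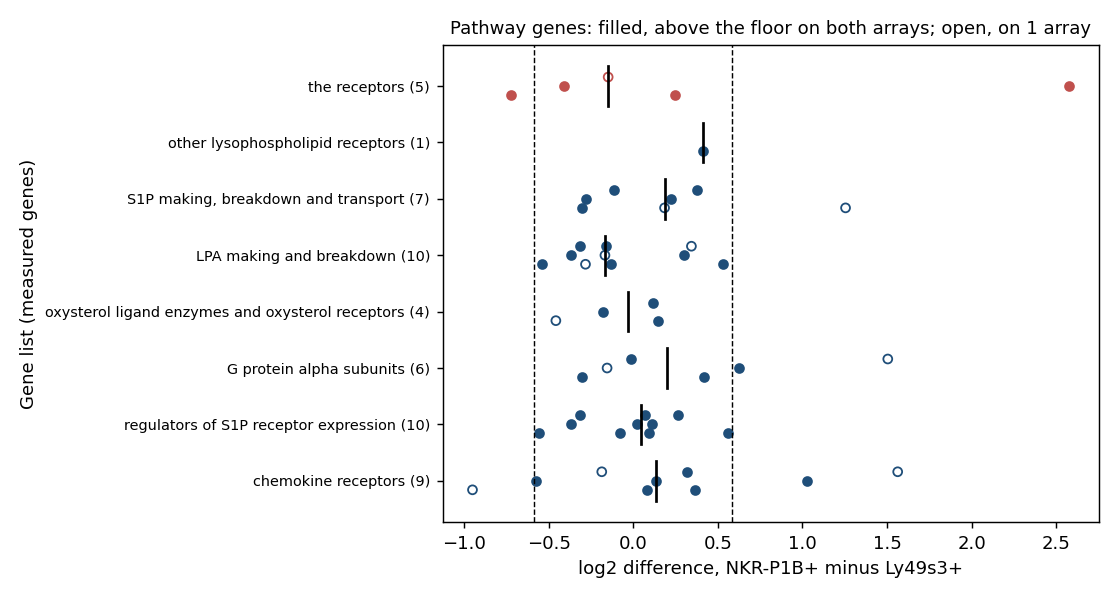
The log2 difference, NKR-P1B+ minus Ly49s3+, of each measured gene of the receptors (red) and of 7 other lists (blue), filled where both arrays were above the floor and open where only 1 was, the list median as a bar and dashed lines at 1.5-fold. Lpar1 at 2.57 is the farthest point, and all 10 regulators of S1P receptor expression lie between the lines. An open point is a lower bound on the size of the difference.

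Chemokine receptors, the most similar class of migration receptors, had 9 of 21 genes measured, with a median of 0.14. Of these, 2 were at least 1.5-fold higher in NKR-P1B+ cells and 1 in Ly49s3+ cells, against 5.06% and 5.72% of all measured genes. Ccr6, for the chemokine CCL20, had 331 and 162, 2.04-fold higher in NKR-P1B+ cells, and Ccr2, for monocyte chemokines, had 60.3 and 13.2, at least 2.96-fold higher there. Ccr10 had 11.9 and 39.4, at least 1.93-fold higher in Ly49s3+ cells. On the floored values Lpar1 had a larger difference than any of these 9, and the numbers are too small to set either class apart.

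Most markers of other cell types were below the floor or low, and none was exactly 0 on both arrays. Beside Lpar1, a gene of mesenchymal tissue, the endothelial and stromal list had 6 of 15 markers measured. Of these, 3 were at least 1.5-fold higher in NKR-P1B+ cells, against 5.06% of all measured genes, and 6 genes are too few to set a share apart. They were Kdr (54.1 against 11.8, at least 2.65-fold), Esam (34.2 against 14.6, at least 1.68-fold) and Tie1 (33.5 against 22, 1.52-fold). Tie1 was named after its values were seen. A second Kdr probe set (6 and 8.2) was below the floor on both arrays. The other 3 measured markers, named after their values were seen, were nominally higher in Ly49s3+ cells, namely Acta2 (49.8 against 33.5), Vwf (30.9 against 23.9) and Egfl7 (21.9 against 4.9). The summed signal of this list was 259 in NKR-P1B+ cells and 223 in Ly49s3+ cells. The collagen genes Col1a1, Col1a2 and Col3a1 and the fibroblast genes Pdgfra, Pdgfrb, Dcn and Lum were below the floor on both. The macrophage list had 1 of 13 markers measured, Lyz2 (356 against 133, 2.68-fold), with sums of 425 and 217, and Cd68, Csf1r and Adgre1 below the floor. The dendritic cell list had 4 of 8 measured, with sums of 2853 and 2137. Most of both sums came from Itgax (2281 and 1716), named after its values were seen. Flt3, Clec9a, Clec10a and Ciita were below the floor on both arrays. In this list Cd1d1 (1.77-fold) and Cd74 (197 against 120.0, 1.64-fold) were higher in NKR-P1B+ cells and Batf3 (4.2 against 83.2, at least 4.08-fold) in Ly49s3+ cells. The B cell list had 3 of 9 measured, with sums of 213 and 169 and Cd22 1.95-fold higher in NKR-P1B+ cells (103 against 52.9). Cxcr5, named after its values were seen, was 1.49-fold higher in Ly49s3+ cells (67.2 against 45.2), while Ms4a1 and Cd79b were below the floor. The part of these cells in the Lpar1 difference was not tested.

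Beside S1pr1, which many lymphocytes express, the T cell list had 8 of 12 markers measured, with sums of 3282 and 2014. In it Cd8a, which rat NK cells also express, was 2.80-fold (2151 against 767) and Cd5 2.27-fold (92.7 against 40.8) higher in NKR-P1B+ cells, and Trat1 was 4.02-fold (346 against 86.2) and Cd3g 1.92-fold (42.9 against 22.3) higher in Ly49s3+ cells, the population with more S1pr1 signal. Cd3d and Cd3e were below the floor on both. The neutrophil and mast cell list had 3 of 9 measured, with sums of 101.5 and 211 and Mcpt10 2.87-fold higher in Ly49s3+ cells (147.6 against 51.5). The platelet and erythroid list had 4 of 9 measured, with sums of 416 and 360.0, Hbb 1.81-fold higher in NKR-P1B+ cells and Hemgn 2.59-fold in Ly49s3+ cells. Of 11 NK markers, only Gzmb was at least 1.5-fold apart (3973 against 2549, 1.56-fold). The part of other cells in the S1pr1 difference was not tested.

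**Figure D4:**
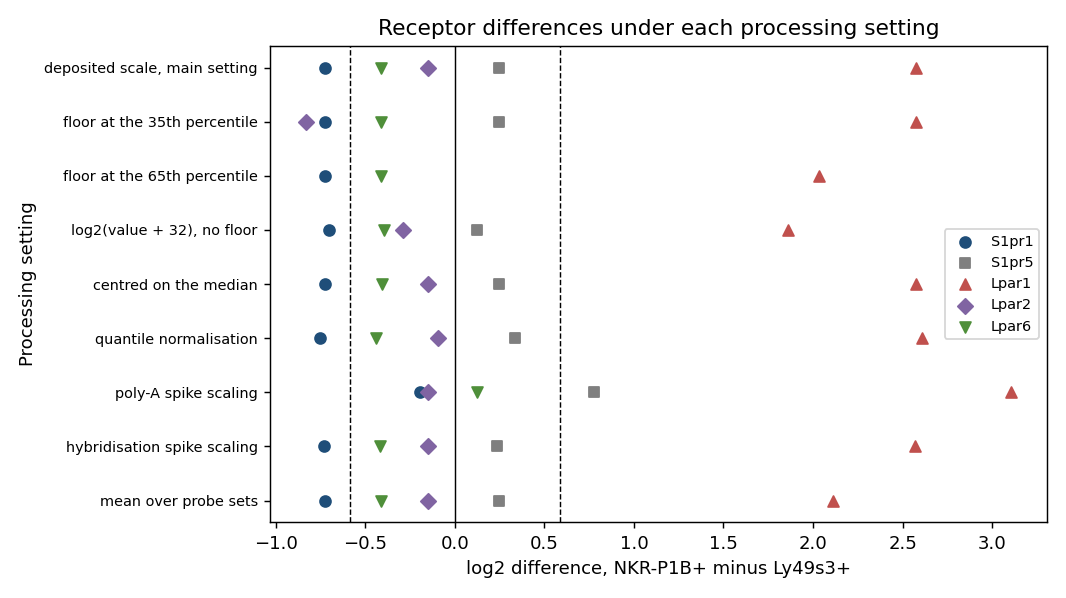
The log2 difference, NKR-P1B+ minus Ly49s3+, of the 5 measured receptors under the main setting and 8 alternatives, with a solid line at 0 and dashed lines at 1.5-fold. Lpar1 lies between 1.86 and 3.11 throughout, S1pr1 moves from −0.72 to −0.19 and Lpar6 from −0.41 to 0.12 with poly-A spike scaling, and a receptor below the floor has no point.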

How the data were processed

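NK cells from 2 sorts were hybridised to 1 Affymetrix rat expression array each, from 3 ug of total RNA per the labels. The deposited values are intensity values on a linear scale, computed by the authors with MAS5 per the submitters' processing notes. Its version, target for scaling and detection calls were not given in the sources used here. Both arrays had a mean of 100.04 after trimming 2% at each end, without centring of genes. The sign of a difference depends on how the arrays are scaled to each other. That of Lpar6 changed with poly-A spike scaling. No depth exists for arrays, and their number limits the precision.

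Probe sets were named from the supplied platform annotation, in which 20832 had 1 gene, 436 several and 9831 none listed. Gene numbers matched to a RefSeq table of GRCr8 changed 0 symbols. Signals were floored at 20.4 and converted to log2 in Python 3.11.15 with pandas 2.3.3, and the probe set of highest mean log2 signal stood for its gene. A ratio with 1 array at the floor is a lower bound. Genes at least 1.5-fold or 2-fold apart were counted. The counting was tested on simulated data, at the 2-fold size and for changed genes well above the floor. That test did not cover the 1.5-fold counts, and its noise was smaller than the spread between probe sets. With 1 array a group there were no residual degrees of freedom and no p-value. Promoter sequences are RefSeq's. Of the gene lists, 1 is not reported here. The receptors and lists were chosen with earlier results of these data known. Named were every receptor, a preset group of ligand and regulator genes, up to 3 genes per direction of each pathway list and up to 2 of each marker list at least 1.5-fold apart, and the 2 genes closest to each receptor that was 1.5-fold apart. The 8 other settings were floors at the 35th and 65th percentiles, log2 of the value plus 32, median centring, quantile normalisation, scaling to poly-A or hybridisation spikes, and the mean over probe sets.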

Additional observations from a re-analysis of the deposited data

How the results depend on the processing

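Differences of the 5 measured receptors moved by less than the SD between probe sets, and kept their side of 1.5-fold, under median centring, quantile normalisation and hybridisation spike scaling. Lpar1, at 2.57, was 2.03 with the floor at the 65th percentile, 1.86 with log2 of the value plus 32, 2.11 as a mean over probe sets and 3.11 with poly-A spike scaling. Lpar2, at −0.15, was −0.83 with the floor at the 35th percentile. There 2 of 6 measured receptors, rather than 1 of 5, were at least 1.5-fold higher in Ly49s3+ cells. The share over all genes measured at that floor was 9.75%. Lpar2 and S1pr5 were not measured with the floor at the 65th percentile. Poly-A spike scaling moved S1pr1 to −0.19, S1pr5 to 0.78 and Lpar6 to 0.12. Under this scaling 6 receptors were measured rather than 5, and the median of the 6 was 0.29, against −0.15 for the 5. It gave 2 receptors at least 1.5-fold higher in NKR-P1B+ cells and 0 in Ly49s3+ cells. The poly-A spikes had a median log2 difference of −0.53 (SD 0.31, 17 probe sets) and the hybridisation spikes 0.01 (SD 0.10, 18 probe sets). Which scaling is right was not tested. All genes at least 1.5-fold higher in NKR-P1B+ and in Ly49s3+ cells numbered 461 and 521, against 764 and 1091 at the 35th percentile floor, 277 and 246 at the 65th, 276 and 227 with the added 32, and 3663 and 112 with poly-A spike scaling. No paired analysis was possible because each population had 1 array, and no array could be left out.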

Other observations

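In the GRCr8 annotation the Lpar6 gene lies within the locus of Rb1, the retinoblastoma gene, on the opposite strand. Rb1 had a signal of 363 in NKR-P1B+ cells and 307 in Ly49s3+ cells, a log2 difference of 0.24, while Lpar6 had −0.41. Gpr183 lies within the locus of Ubac2, also on the opposite strand, and Ubac2 had 76.9 and 81.4. These neighbours were looked up after the receptor values were seen.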
